A study of Mus musculus with 4 samples.

Results

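A set of 40 genes of the G2 phase and of mitosis was read out of an RNA-seq comparison of mouse CD8+ T cells. They were listed by name, as cyclins, kinases, kinesins, centromere proteins and cytokinesis proteins, a rule that uses no measured value. All 40 were found among the 49490 genes of the table, and all 40 were among the 18378 genes with a normalized count of at least 10 in at least 2 libraries, the filter for testing. A normalized count is the number of reads of a gene divided by a size factor of its library, so that libraries of different depth can be compared. The cells came from spleens and lymph nodes, were activated in culture, and gave 4 libraries of polyadenylated RNA. Of these, 2 are labelled WT, which the series text gives as Irf8fl/fl (Irf8 with loxP sites around part of the gene, intact until a recombinase cuts it), and 2 are labelled Irf8 knockout, given as Irf8-/-. The sources used here do not give the stimulus, its duration, the strain, the age of the mice or any Cre driver. They also do not say whether the replicates are different mice, so a p below reflects replicate spread that could be technical alone. The study asked which genes depend on IRF8, a transcription factor of immune cells.

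A T cell that has been activated divides repeatedly, and each division needs a burst of transcripts late in the cycle. Cyclin B and cyclin A switch on the kinase CDK1 to start mitosis, the kinases PLK1 and the aurora kinases build the spindle, kinetochore proteins tie chromosomes to it, and the anaphase-promoting complex then marks cyclin B for destruction so that the cell can divide. These genes are transcribed together from late S phase on, under the MuvB complex with B-MYB and FOXM1, and the summed level of their transcripts is widely used as a reading of how much of a population is cycling. In resting cells the DREAM complex represses many of them through a promoter element called the cell cycle homology region.

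That element was looked for first, as letters, because it is what these genes are known to share and the list did not use it. The stretches below run from 130 bases before to 29 bases after the first base of the gene as annotated by RefSeq on GRCm38.p6, the assembly also called mm10, 5′ to 3′ along the gene's own strand. They are the members that passed the test of expression described below (Cdc25b, Cenpa, Racgap1 and Tacc3), with Cdk1 and Top2a as members that did not. Cenpa and Racgap1 were fixed by a rule, and the other 4 were chosen after their values were seen. Capitals mark TTTGAA, the core of the cell cycle homology region, and CCAAT, the box bound by NF-Y, each on either strand, so that TTCAAA and ATTGG are marked too. The stretches lie at chr10:69352883-69353042 (minus strand, Cdk1), chr11:99024160-99024319 (minus strand, Top2a), chr5:30666756-30666915 (plus strand, Cenpa), chr15:99651627-99651786 (minus strand, Racgap1), chr2:131186818-131186977 (plus strand, Cdc25b) and chr5:33657998-33658157 (plus strand, Tacc3).
Cdk1: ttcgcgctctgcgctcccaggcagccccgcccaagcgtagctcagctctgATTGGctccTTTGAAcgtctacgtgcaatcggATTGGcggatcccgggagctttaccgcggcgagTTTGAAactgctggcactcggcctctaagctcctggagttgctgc
Top2a: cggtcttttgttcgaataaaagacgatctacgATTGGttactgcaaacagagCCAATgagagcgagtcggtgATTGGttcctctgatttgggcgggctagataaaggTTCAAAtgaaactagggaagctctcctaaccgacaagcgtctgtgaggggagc
Cenpa: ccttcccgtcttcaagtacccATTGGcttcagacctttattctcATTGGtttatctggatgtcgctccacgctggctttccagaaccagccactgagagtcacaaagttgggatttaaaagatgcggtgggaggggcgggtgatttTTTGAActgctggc
Racgap1: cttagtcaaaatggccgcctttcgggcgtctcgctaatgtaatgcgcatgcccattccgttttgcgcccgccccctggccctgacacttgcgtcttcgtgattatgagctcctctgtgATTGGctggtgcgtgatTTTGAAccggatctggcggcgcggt
Cdc25b: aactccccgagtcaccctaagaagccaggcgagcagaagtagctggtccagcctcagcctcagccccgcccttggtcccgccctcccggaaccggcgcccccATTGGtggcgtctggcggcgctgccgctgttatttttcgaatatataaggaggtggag
Tacc3: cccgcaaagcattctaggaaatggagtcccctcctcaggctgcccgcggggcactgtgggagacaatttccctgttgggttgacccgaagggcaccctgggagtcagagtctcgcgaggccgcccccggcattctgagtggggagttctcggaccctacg

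The Cdk1 stretch held 2 matches of each motif, and that of Top2a 1 TTTGAA and 3 CCAAT matches. Cenpa had 1 and 2, Racgap1 had 1 of each, Cdc25b had a CCAAT match alone, and Tacc3 had none. Over windows from 250 bases before to 50 after the start, RefSeq's promoter table held 34 of the 40 members in 36 windows, Ect2 and Prc1 having 2 overlapping windows each. Ccna2, Cdc25c, Aurkb, Kif20a, Tpx2 and Dlgap5 were not in it. TTTGAA was present in 27 of the 36 windows, against 17.9% of all 32851 windows in the table, 39.8% of 108 windows of the other G2 and mitosis genes described below, and 12.8% of 47 windows of DNA replication and G1/S genes. Within the last 100 bases of the window, around the start itself, the shares were 66.7% of the members' windows, 29.6% of those of the other G2 and mitosis genes and 4.94% of all windows. CCAAT was present in 77.8% of the members' windows, 59.3% of those of the other G2 and mitosis genes, 63.8% of the replication windows and 37.4% of all windows, and 18 of the 36 windows of members held at least 2, against 11.7% of all windows. Both motifs occurred in 63.9% of the members' windows, 27.8% of those of the other G2 and mitosis genes and 6.95% of all windows. Letters known from E2F sites (TTTCGCGC, TTTGGCGC or TTCCCGCC, either strand) were present in 2.78% of the members' windows, 2.96% of all windows, 13.9% of the windows of other G2/M genes and 40.4% of the replication windows. Motifs were counted separately, also where they overlapped. Birc5, Nuf2, Nusap1 and Tacc3 had neither TTTGAA nor CCAAT in the window, and Ccnb1, Bub1, Cdc25b, Cenpe and Nek2 had CCAAT alone. A match is a description of letters and not of binding. For the cell cycle homology region only TTTGAA and its reverse complement were searched, so a window without them was not checked for other spellings.

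**Figure D1:**
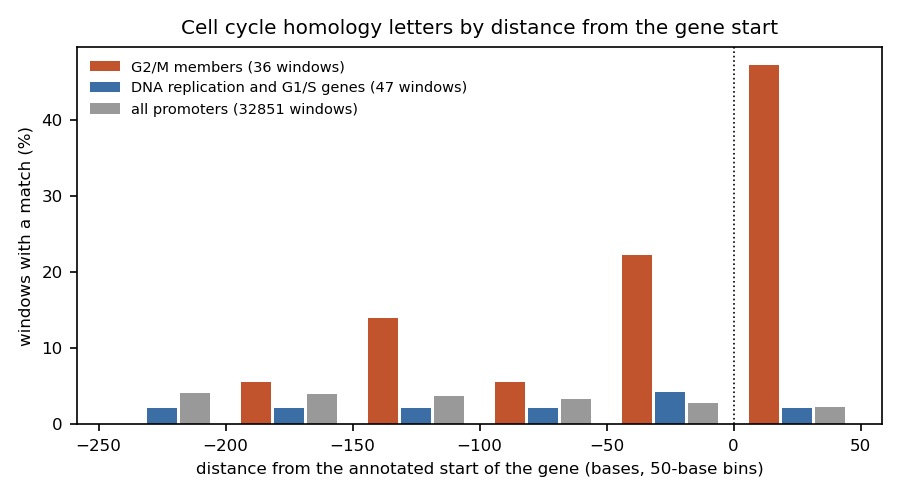
Share of RefSeq promoter windows (vertical axis, %) in which TTTGAA or its reverse complement begins in each 50-base bin of distance from the annotated gene start (horizontal axis, bases), for 36 windows of the members, 47 of DNA replication and G1/S genes and all 32851. In the bin from 0 to 50 bases after the start, 47.2% of the members' windows had a match against 2.25% of all windows.

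Several facts of the whole series bear on every value below. Irf8, the targeted gene (ENSMUSG00000041515.10, chromosome 8, 120736358 to 120756694, plus strand), had 6364 and 6081 normalized counts under the WT label and 89508 and 90222 under the knockout label, 14.4-fold higher in the latter. That direction goes against the labels, so the groups are called by their labels throughout and every change is given as knockout label over WT label. The libraries held 58899365 to 59724952 reads. Markers of other cells differed between the groups. Of 17 markers of plasmacytoid dendritic cells, 16 were higher and 0 lower, none was at 0, and their summed level in CPM (reads of the list divided by all reads of the library and multiplied by 1000000) was 487 to 506 under the WT label and 5505 to 5508 under the knockout label. Conventional dendritic cell markers were higher in 8 of 10, with sums of 231 to 243 and 721 to 732, and B cell markers in 7 of 11 tested, with sums of 395 to 398 and 5375 to 5398 that include Cd74 and Ighm. Neutrophil markers were higher in 8 of 9 tested, from sums of 3.33 to 4.17 to 54.6 to 57.2. Ebf1 of the B cell list and Elane, Mpo and Camp of the neutrophil list had 0 reads in the libraries labelled WT. Macrophage and monocyte markers were lower in 10 of 14 and higher in 1 (sums of 3952 to 4080 and 2936 to 3063), and those of NK cells lower in 4 of 7 tested and higher in 1 (sums of 5337 to 5684 and 4095 to 4176). The NK cell list includes Nkg7, Klrk1 and Eomes, which are not confined to NK cells, so its sums do not measure NK cells alone. Erythroid and platelet markers passed in 1 of 8 tested in each direction, with sums of 179 to 199 and 206 to 207. T cell identity genes, among them Cd3e and Cd8a, were present at sums of 18312 to 18777 and 14290 to 14423 CPM, with 20 of 24 lower and 1 higher. These movements ran beside the values below, and their part in them was not tested. In bulk RNA, fewer cells of a type and less RNA per cell cannot be told apart.

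The mitotic genes stood nearly level between the groups. Of 40 members, 1 (Tacc3) was higher and 3 (Cdc25b, Cenpa and Racgap1) were lower at an adjusted p under 0.05, by limma on log2(normalized count + 1) with Benjamini-Hochberg adjustment over all genes tested, and 36 did not pass. Over all 18378 genes, 19.9% were higher and 13.4% lower, together 33.4%, where 4 of the 40 members passed. Genes whose mean lay in the members' own range, from 108 (Cdc25c) to 6474 (Racgap1), passed in 38.4%. The members' log2 fold changes ran from -0.35 to 0.27 with a median of -0.04, beside a median of 0.02 and a 25th to 75th percentile span of -0.25 to 0.42 for all genes. Their absolute log2 fold change had a median of 0.09, against 0.31 for all genes tested. That is smaller than the median absolute log2 difference between the replicate libraries of a group over the members, which was 0.15 for those labelled WT and 0.12 for those labelled knockout, although a mean of 2 libraries varies less than a single library. The groups' values did not overlap in 14 members (35.0%), with 6 above and 8 below, where they did not overlap in 68.8% of all genes.

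The 95% intervals of the log2 fold changes give how far a change could have gone unseen under the deposited scaling. They cover the spread of these libraries, which could be technical alone, and not the choice of scaling. In all 40 members the interval lay inside a 2-fold change in either direction, and in 34 it lay inside 1.5-fold. The widest belonged to Ttk (-0.70 to 0.84) and Cdc25c (-0.97 to 0.47), the 2 members with the fewest reads. Scaling moved these values together. With each library centred on its median, the median of all genes fell to -0.28, that of the members to -0.34, and 0 members were higher and 19 lower. With edgeR's upper-quartile factors 0 were higher and 5 lower. The split of calls over all genes moved as well, from 59.7% higher to 24.9% with centring and 47.0% with upper-quartile factors. Relative to the median of all genes, the members' median was -0.06 under the deposited scaling and under each of these. The authors' deposited table, in which 25.6% of genes with an adjusted p passed, called Cdc25b, Cenpa and Racgap1 in the same direction and no other member.

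**Figure D2:**
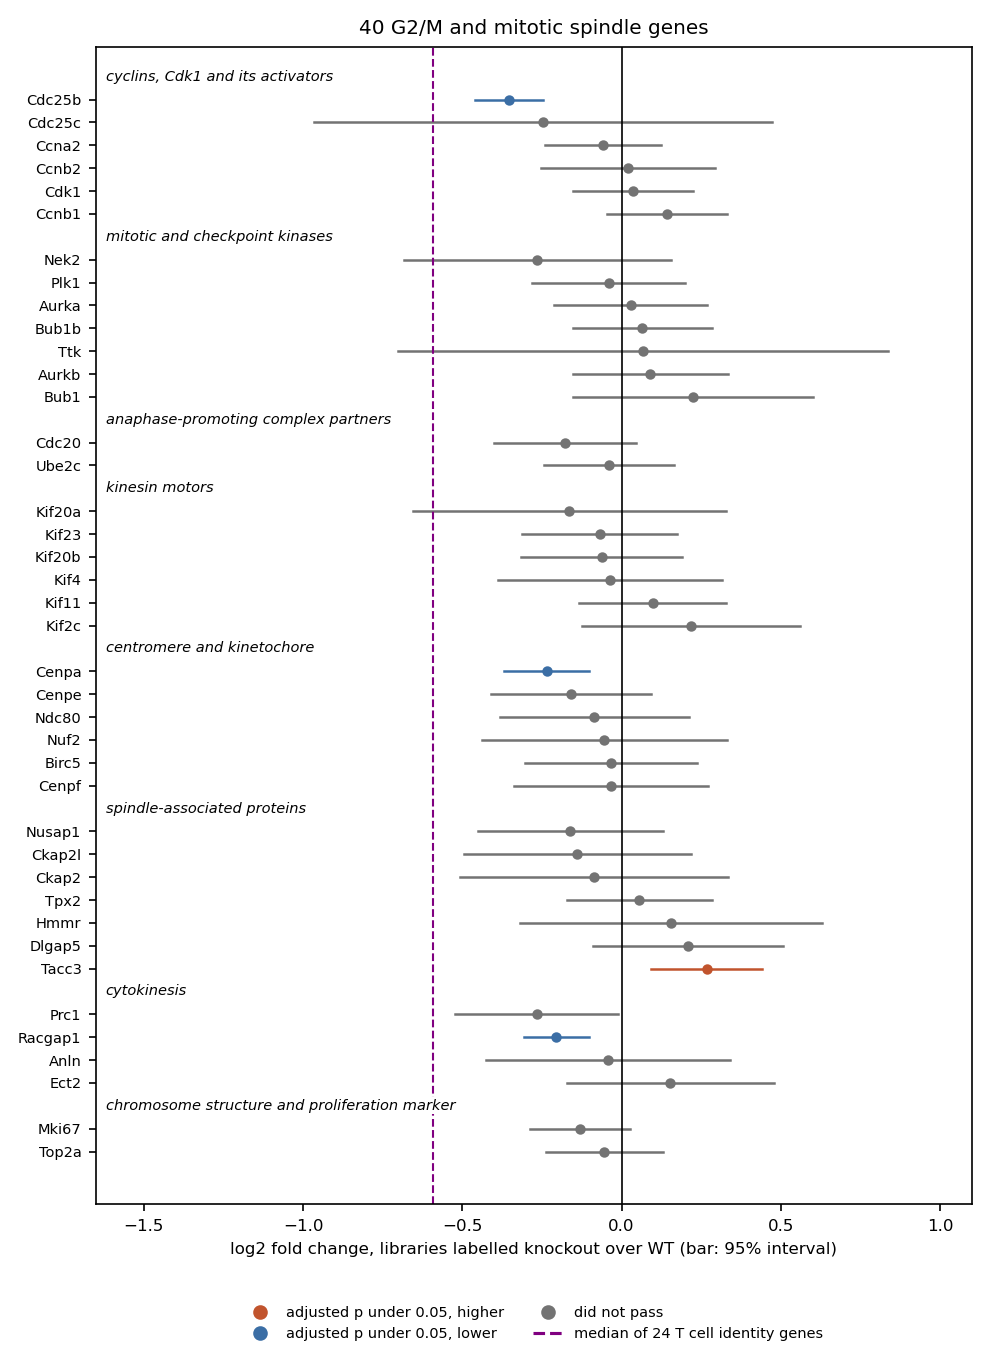
Log2 fold change of each member (horizontal axis, libraries labelled knockout over those labelled WT, point) with its 95% interval from limma (bar), grouped by role. Of the 40, 3 passed as lower and 1 as higher, every interval stays between -1 and 1, and all 40 points lie right of the dashed line, the median of 24 T cell identity genes at -0.59. Most genes tested, which are not drawn, lie right of it too, with a 25th percentile of -0.25.

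Among the cyclins and their kinase, Ccna2 (cyclin A2, which serves S phase and entry to mitosis) had 1620 and 1488 under the WT label and 1498 and 1484 under the knockout label. Ccnb1 (cyclin B1, the main partner of CDK1 in mitosis) had 970 and 979 against 1074 and 1079. The groups of Ccnb1 did not overlap, yet the log2 fold change of 0.14 (SE 0.08) did not pass, with a limma adjusted p of 0.209 and an interval of -0.04 to 0.33. Ccnb2, the other B-type cyclin of the list, had 894 and 1089 against 1008 and 992, so the lowest and the highest value both came from libraries labelled WT. For Cdk1 the values were 1339 and 1249 against 1352 and 1300, a log2 fold change of 0.04 with an interval of -0.15 to 0.22.

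The phosphatases that activate CDK1 differed from each other in level. Cdc25b (ENSMUSG00000027330.16, chromosome 2, 131186949 to 131198497, plus strand) had 6729 and 6471 under the WT label and 5176 and 5146 under the knockout label. Both of the latter were lower, the means being 6600 ± 183 and 5161 ± 21.3 (SD, n = 2 each). The log2 fold change of Cdc25b was -0.35 (SE 0.04, limma adjusted p = 0.00150), a fall of 21.8% and the lowest of the 40. Cdc25c had few reads, with 88.5 and 150 against 93.1 and 101, and its groups overlapped.

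None of the 7 mitotic and checkpoint kinases passed. Plk1, the polo-like kinase of spindle assembly, had 987 and 937 against 875 and 1001. Aurka, the aurora kinase of centrosomes, had 611 and 634 against 653 and 617, and Aurkb, that of the chromosomal passenger complex, had 1104 and 997 against 1050 and 1188. In all 3 the groups overlapped. The kinases that hold anaphase until chromosomes are attached gave 768 and 817 against 842 and 817 for Bub1b and 408 and 345 against 483 and 398 for Bub1. Bub1 had the highest log2 fold change of the kinases, 0.22 with an interval of -0.15 to 0.60, and its groups overlapped. Ttk (MPS1) had 182 and 115 against 121 and 192, so the replicates differed more than the groups. Nek2, a kinase of centrosome separation, had 285 and 229 against 219 and 205, which did not overlap, with a log2 fold change of -0.26 that did not pass (interval -0.68 to 0.15).

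The 2 members that work with the anaphase-promoting complex did not pass either. Cdc20, its activator, had 1252 and 1304 under the WT label and 1056 and 1206 under the knockout label, lower in both, with an interval of the log2 fold change from -0.40 to 0.04. Ube2c, the ubiquitin-conjugating enzyme that supplies it, had 1383 and 1508 against 1469 and 1344.

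Kinesins, the motors that slide and pull spindle microtubules, passed in 0 of 6. Kif11 (Eg5, which pushes the spindle poles apart) had 961 and 959 against 1097 and 961, so that replicate 1 of the knockout label stood clear and replicate 2 was level with the WT label. Kif2c, which takes microtubules apart at centromeres, had 295 and 331 against 343 and 385, with a log2 fold change of 0.22 (interval -0.12 to 0.56), the highest of the group. The lowest was Kif20a, a motor of cytokinesis, at -0.16 (interval -0.66 to 0.33), with 584 and 484 against 392 and 574. Kif23 had 1327 and 1223 against 1310 and 1126, Kif20b 731 and 660 against 645 and 685, and Kif4 336 and 375 against 319 and 375, all overlapping.

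All 6 centromere and kinetochore members had a log2 fold change below 0, and 1 of them passed. Cenpa, the histone H3 variant that marks centromeres (ENSMUSG00000029177.9, chromosome 5, 30666777 to 30674830, plus strand), had 4239 and 4034 under the WT label and 3426 and 3601 under the knockout label. The groups did not overlap, with means of 4136 ± 145 and 3513 ± 123 (SD, n = 2 each). The log2 fold change of Cenpa was -0.24 (SE 0.06, limma adjusted p = 0.0196). Cenpe, a kinetochore motor, had 643 and 695 against 618 and 580, lower in both libraries labelled knockout without passing. Cenpf had 462 and 541 against 503 and 476. Ndc80 and Nuf2, which pair in the complex that grips microtubules, had 542 and 467 against 469 and 479, and 269 and 332 against 294 and 281. Birc5 (survivin, of the chromosomal passenger complex) had 1123 and 1378 against 1237 and 1195. In Cenpf, Ndc80, Nuf2 and Birc5 the values labelled knockout lay within the range of the values labelled WT.

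Of 7 spindle-associated proteins, Tacc3, which stabilizes the microtubule bundles at kinetochores, was higher. Tacc3 (ENSMUSG00000037313.16, chromosome 5, 33658128 to 33678995, plus strand) had 1387 and 1297 against 1616 and 1612, with means of 1342 ± 63.8 and 1614 ± 2.70 (SD, n = 2 each) that did not overlap. Its log2 fold change was 0.27 (SE 0.07, limma adjusted p = 0.0324), the highest of the 40. This call was lost in 7 of 15 alternative settings, and the authors' deposited table gives Tacc3 an adjusted p of 0.0809. With median centring Tacc3 turned to -0.03. Dlgap5 (HURP) had 369 and 397 against 424 and 462, higher in both, with an interval of -0.09 to 0.51. Nusap1 was the lowest of these at -0.16, with 743 and 640 against 652 and 584. Tpx2, the activator of aurora A on the spindle, had 826 and 800 against 885 and 807. Hmmr had 228 and 303 against 266 and 323, Ckap2 252 and 208 against 228 and 204, and Ckap2l 558 and 476 against 425 and 515, all overlapping.

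Cytokinesis, the final cut between daughter cells, is driven by the centralspindlin complex of RACGAP1 and KIF23. Racgap1 (ENSMUSG00000023015.14, chromosome 15, 99620496 to 99651656, minus strand) had 6921 and 6943 under the WT label and 5925 and 6105 under the knockout label. Its groups did not overlap, with means of 6932 ± 15.1 and 6015 ± 127 (SD, n = 2 each). The log2 fold change of Racgap1 was -0.20 (SE 0.04, limma adjusted p = 0.0114), a fall of 13.2%, while that of its partner Kif23 was -0.07 with an interval of -0.31 to 0.17. Prc1, which bundles the central spindle, had 1302 and 1110 against 957 and 1042. These did not overlap, and the log2 fold change of -0.27 (SE 0.11) did not pass (limma adjusted p = 0.103, unadjusted p = 0.0432). Prc1 was thus the one uncalled member with an unadjusted p under 0.05. Ect2, the exchange factor that activates RhoA at the division plane, had 337 and 393 against 412 and 398, and Anln, a scaffold of the contractile ring, 252 and 224 against 242 and 220.

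The markers most often stained to count dividing cells were close in the groups. Mki67, which encodes the antigen Ki-67, had 2835 and 2965 against 2754 and 2546, lower in each library labelled knockout. Its log2 fold change of -0.13 had an interval of -0.29 to 0.03 and did not pass (limma adjusted p = 0.174). Top2a, the topoisomerase that untangles chromosomes, had 5464 and 6227 against 5854 and 5394 and overlapped.

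**Figure D3:**
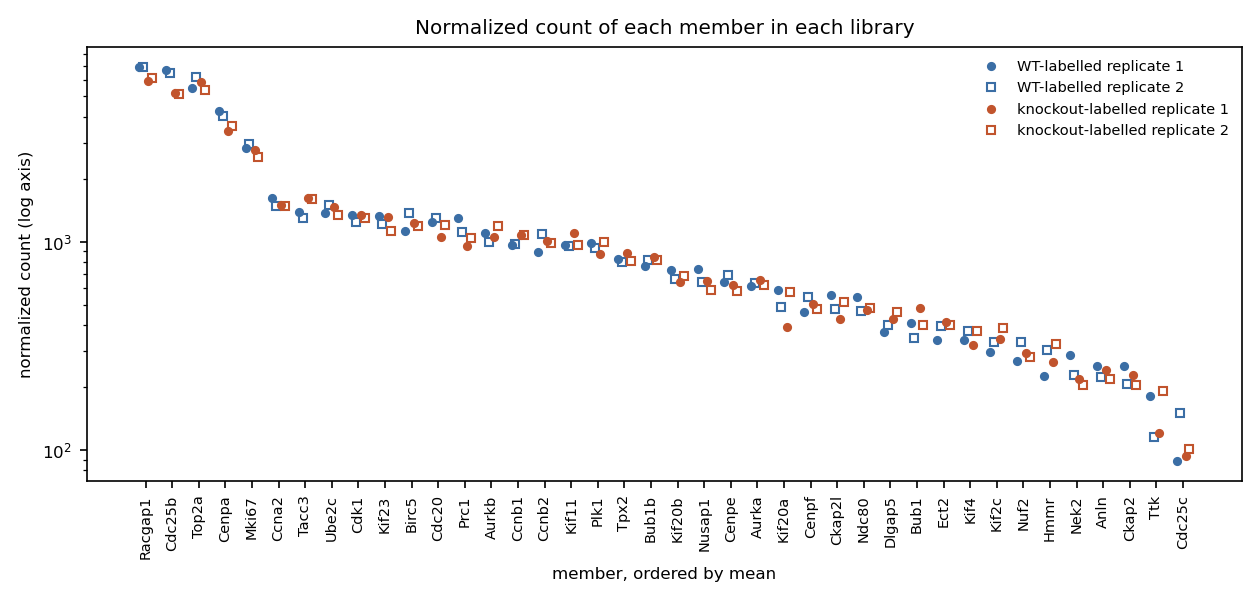
Normalized count of each of the 40 members in each of the 4 libraries (vertical axis, log scale), ordered by mean (horizontal axis); blue symbols are libraries labelled WT and orange those labelled knockout. The libraries trace nearly the same line, with the blue symbols clear above the orange for Racgap1, Cdc25b and Cenpa and below them for Tacc3.

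Called members were found at high and at middle levels. Of the 5 members with a mean normalized count over 2500, a value chosen after the data were seen, 3 were called (Racgap1, Cdc25b and Cenpa) and Top2a and Mki67 were not, while Tacc3, with a lower mean than both, was. Genes over the members' whole range of means passed in 38.4%. The share of all genes over 2500 was not taken, so the count of 3 in 5 describes these genes alone. The standard errors of Racgap1 (0.04), Cdc25b (0.04) and Cenpa (0.06) were the 3 smallest of the 40. The replicates set no common order: 19 of 40 members were higher in WT-labelled replicate 2 than in replicate 1, and 17 of 40 in knockout-labelled replicate 2 than in replicate 1. The calls of Cdc25b, Cenpa and Racgap1 held in 13 of 15 alternatives and were lost without either library labelled knockout, where the spread came from the libraries labelled WT alone and no member was called. With replicate 1 or 2 of that label left out, the adjusted p reached 0.0549 for Cdc25b, 0.162 for Cenpa and 0.121 for Racgap1, and the calls over all genes fell to 1358 and 1309 higher and 694 and 630 lower.

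Levels differed far more between members than between groups. In CPM per kilobase of annotated exon, Cdc25b stood first with 29.3 under the WT label and 23.9 under the knockout label, followed by Racgap1 (16.2 and 14.7), Cenpa (11.7 and 10.4), Ccnb2 (10.7 and 11.3) and Cdc20 (11.3 and 10.5). The lowest levels per kilobase were those of Cdc25c (0.40 and 0.341), Anln (0.435 and 0.440) and Ttk (0.501 and 0.548). Neighbours such as Cenpa, Ccnb2 and Cdc20 changed places between the groups, and union exon lengths, which count every annotated exon, make these levels approximate.

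Summed over the 40 members, the level was 861 and 849 CPM under the WT label and 834 and 829 under the knockout label. The means were 855 ± 8.52 and 831 ± 3.23 (SD, n = 2 each), a difference of -2.77%. Both sums labelled knockout were the lower, and the exact two-sided permutation test gave p = 0.333, the smallest that 2 libraries against 2 allow. These sums are in CPM, which stands higher under the knockout label, relative to the WT label, than normalized counts. On normalized counts, where no sum was taken, the fall would be larger. By role, the CPM sum differed by -8.61% for cytokinesis, -8.09% for cyclins, CDK1 and its activators, and -6.67% for centromere and kinetochore. Those roles hold Racgap1, Cdc25b and Cenpa, each the member with the most reads in its role, which weighs most in the sum. The CPM sum differed by 10.8% for spindle-associated proteins, 7.36% for kinases and 3.74% for kinesins. The spindle-associated sums were 72.8 and 67.6 under the WT label and 77.6 and 77.8 under the knockout label. Those of kinases were 72.5 and 66.8 against 73.3 and 76.3, and those of kinesins 70.6 and 66.1 against 70.9 and 70.9. For kinases and kinesins the replicates labelled WT differed by more than the means of the groups. On normalized counts the median log2 fold changes of the latter roles were 0.06, 0.07 and -0.05, in the same order, with 2 of 6 kinesins above 0.

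**Figure D4:**
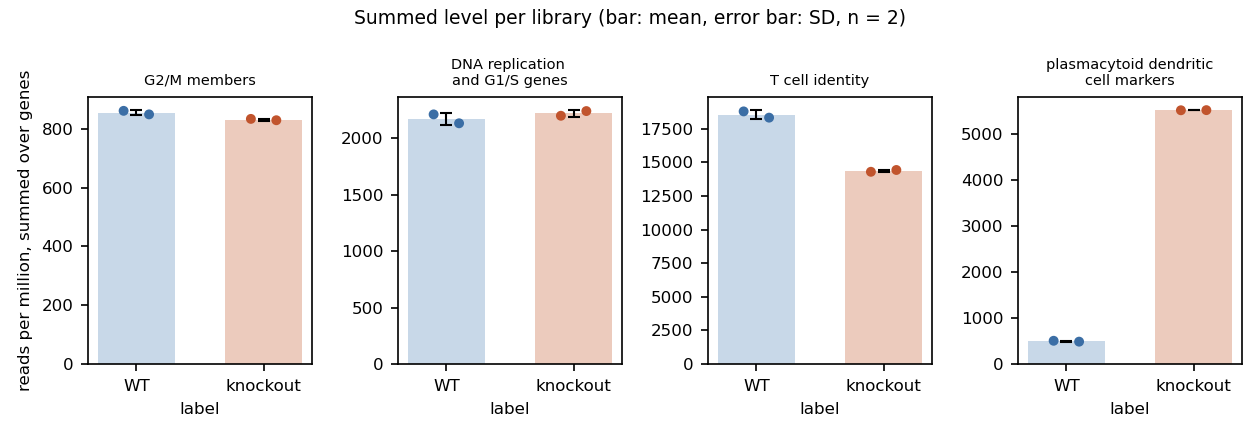
Summed level of 4 gene lists (vertical axes, CPM, each from 0) in each library (points), with the mean (bar) and SD (error bar, n = 2) of each label. The mitotic sums lie at 829 to 861 in all libraries, while T cell identity sums are 22.6% lower and plasmacytoid dendritic cell sums 11.1-fold higher under the knockout label.

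The T cell genes of the same libraries did not stand level. Their log2 fold changes had a median of -0.59, 0.55 below that of the mitotic genes. Most genes tested lay above that T cell median, their 25th percentile being -0.25. All 40 mitotic genes lay above it, and for 36 of the 40 the whole 95% interval did. These are counts within one fit, and no test of the difference between lists was made.

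Outside the list, 122 further genes of G2 and mitosis were read by the same test. Of these, 8 were higher and 9 lower (13.9% called, against 33.4% of all genes), with a median log2 fold change of -0.05. The groups did not overlap in 58.2% of them, against 68.8% of all genes. An unadjusted p under 0.05 by limma was found for 30 of them, and for 8033 of all 18378 genes. In CPM the summed level of the 122 differed by 2.54%, where that of the 40 members differed by -2.77%. On normalized counts, which stand lower under the knockout label than CPM, no sum was taken, so neither percentage holds there. Of the 122 log2 fold changes on normalized counts, 52 were above 0 and 70 below. Whether the further genes and the members differ was not tested. Foxm1, the activator of late cycle genes, had 960 and 1097 against 1152 and 1078 and did not pass, with a log2 fold change of 0.12 and an interval of -0.12 to 0.36. Mybl2, which encodes B-MYB, rose 1.55-fold, from 592 and 661 to 1033 and 912 (limma adjusted p = 0.00612). Of the 7 transcriptional regulators of G2/M genes among the 122, 1 was higher and 1 lower (28.6%, a share near the 33.4% of all genes). Their log2 fold changes were above 0 in 3 and below 0 in 4, with a median of -0.08. The further genes with the smallest adjusted p that rose were Nek6, a mitotic kinase that acts below NEK9, and Anapc5, a subunit of the anaphase-promoting complex. Nek6 had 2081 and 1936 against 8604 and 8233, a rise of 4.19-fold and the largest of the 122. Anapc5 had 10239 and 9992 against 13697 and 13598. Among those that fell, Hmgb2, a chromatin protein abundant in cycling cells, went from 12097 and 12615 to 9378 and 9300, and Numa1, which anchors the spindle poles, from 7401 and 7432 to 5920 and 5872. Centromere proteins passed in 0 of 18, further kinesins in 0 of 8 and a group of 3 in 0, made of Incenp and Cdca8, subunits of the chromosomal passenger complex, and Haspin (listed as Gsg2), a histone H3 kinase that helps to recruit it, where edgeR called 1 lower, 1 lower and 0, and 2, 2 and 1 had an unadjusted p under 0.05 by limma. With median centring 3 of the 122 were higher and 69 lower.

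Genes that act earlier in the cycle were read beside them. Of 50 DNA replication and G1/S genes, 7 were higher and 7 lower (28.0%, against 33.4% of all genes), with a median of -0.04. E2f1, a transcription factor of S phase entry, went from 623 and 645 to 1108 and 1174, 1.80-fold higher, and Pold1, a replicative polymerase, from 2993 and 3332 to 4364 and 4773. Rpa2, which binds single-stranded DNA, went from 5844 and 5611 to 3975 and 4326, and Cdt1, a licensing factor, from 4736 and 4251 to 3504 and 3528. Whether this list and the mitotic one differ was not tested.

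Of the 5 G1 cyclins and kinases, 1 rose and 2 fell. Ccnd1, cyclin D1, which links growth signals to the cycle, rose 9.53-fold, from 1303 and 1229 to 12269 and 11873. Ccnd2, another D-type cyclin with more reads than Ccnd1 here, fell from 30407 and 29648 to 23187 and 23573. Cdk4 fell from 11954 and 11943 to 10680 and 10810. Of 11 CDK inhibitors and pocket proteins, 3 rose and 1 fell (36.4%), a share near the 33.4% of all genes, and edgeR called 3 higher and 2 lower. Cdkn2d (p19INK4D) rose 1.75-fold, from 3778 and 4016 to 6901 and 6736, and Cdkn1a (p21) 1.54-fold, from 1931 and 2272 to 3168 and 3286. Rbl2 (p130), a pocket protein of the DREAM complex, fell from 7520 and 7234 to 5742 and 5859. These values stood beside plasmacytoid dendritic cell markers such as Siglech, 418-fold higher, and Tcf4, 65.6-fold higher, and the part of those cells in them was not tested.

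**Figure D5:**
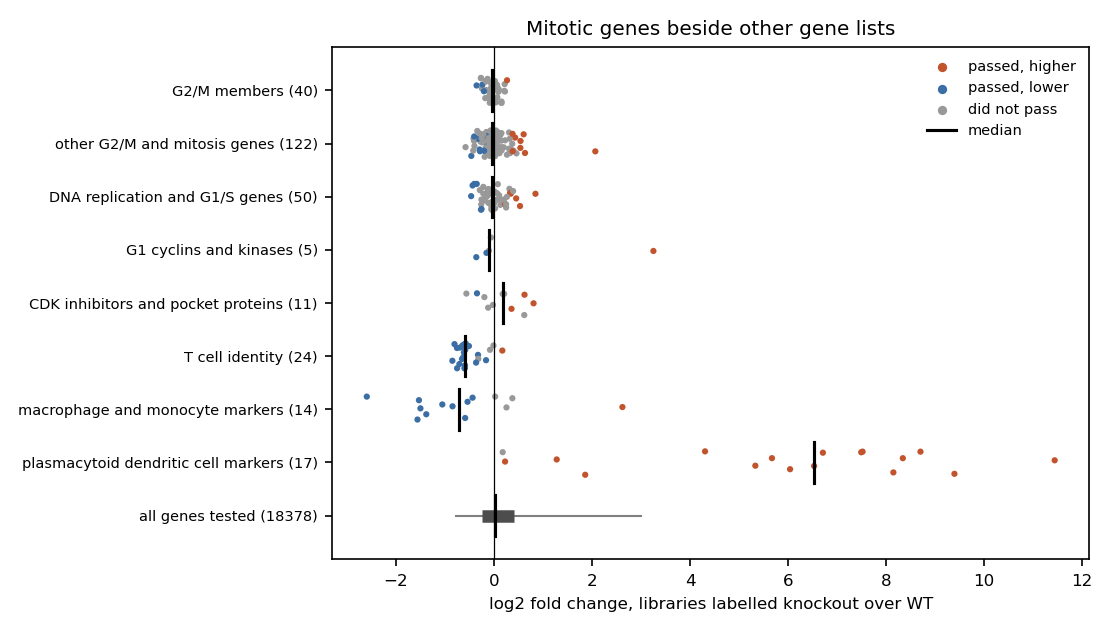
Log2 fold change (horizontal axis, libraries labelled knockout over WT) of each gene in 8 lists, with the median of each list (black line); the lowest line shows the 25th to 75th (thick) and 5th to 95th (thin) percentiles of all 18378 genes. The 40 members lie within -0.35 to 0.27, Ccnd1 and Nek6 stand apart from their lists at 3.25 and 2.07, and the plasmacytoid markers reach 11.4.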

How the data were processed

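RNA of 4 libraries was compared, grouped and numbered by the sample titles. The submitters' processing notes name Trim Galore 0.4.4, HISAT2 2.2.1, StringTie 2.1.4, DESeq2 and mm10. The sources used here give neither settings, nor the annotation, nor how strand was treated. Per the file headers, the authors deposited a normalized count (a signal, not whole-numbered) per library, with a mean, a log2 fold change of WT over knockout and its error, a Wald score (Wald statistic), a p-value and an adjusted p-value.

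Whole reads were recovered within 0.01 reads for 100.0% of values, with totals of 58899365 and 59724952 (WT) and 59091255 and 59489280 (knockout). The main test was limma 3.58.1 with eBayes (robust, with a mean-variance trend), run on log2(normalized count + 1), a scale that understates the change of low genes. Alternatives were a replicate block, centring on the median, other pseudocounts (0.1, 10), other filters (none, 50), each library left out, limma without robust variance, and edgeR 4.0.16, DESeq2 1.42.0 and limma-voom on recovered reads. On recovered reads edgeR called 3691 genes higher and 2652 lower. Tests were tried on simulated data. Exon lengths and gene positions came from GENCODE M21 (GRCm38), where all 40 symbols matched once, and promoters from RefSeq GRCm38.p6. Planned searches of protein letters were not run. The members and lists were chosen with earlier results of these data known. Values in all 4 libraries were planned for the members with the highest and lowest fold change in each role, and for up to 2 rising and 2 falling genes of each further cycle list with the smallest adjusted p. Foxm1, Mybl2 and the cell markers were named after their values were seen. Intervals on fold changes cover the spread of these libraries.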

Additional observations from a re-analysis of the deposited data

How the results depend on the processing

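Over the 40 members and 15 alternatives, 568 of 600 values kept their call, 12 lost one, 18 gained one and 2 turned direction with a call on either side. Values without a call whose sign turned are among the 568, up to 13 members in a setting. With median centring the counts were 2389 genes higher and 7210 lower, 0 members higher and 19 lower, and 3 and 69 of the further mitotic genes, with a members' median of -0.34. There Cdk1 turned to -0.26 (limma adjusted p = 0.0338) and Tacc3 to -0.034. This follows from the centring itself, since all genes shifted alike. Upper-quartile factors in edgeR gave 0 and 5 members, a median of -0.12 and 27 further mitotic genes lower. The members' median was -0.051 with DESeq2. No member was higher without a filter on low values or with the replicate block, where Tacc3 lost its call and no other member's call changed. The replicate numbers share no stated source, and the deviations of equal numbers correlated at 0.02 over genes, so the block is a check only. Leaving out each library gave 1309 to 4137 genes higher and 630 to 2759 lower, 0 to 1 members higher and 0 to 4 lower, members' medians of -0.038 to 0.00102, and 2 to 9 higher and 2 to 13 lower among the further mitotic genes. Ttk and Cdc25c, the members with the fewest reads, had the widest intervals, and the part of depth in this was not tested.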
